A study of Drosophila melanogaster with 46 samples.

Results

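Transcripts of the Drosophila testis were set against those of the male body from which the testes had been removed. The comparison rests on 2 of the 46 2-colour arrays of the series, chosen by their titles, which name testis in one channel and the gonadectomized male in the other. Array 9 carried testis in channel 1 and array 10 carried it in channel 2, so the dyes were swapped between them. All values below were turned so that a positive log2 ratio means more signal from testis than from male carcass, a direction that is likely rather than stated, read from control genes on other arrays. The ratio between equal masses of mRNA was measured, so in these bulk samples fewer cells of a type and less RNA per cell cannot be told apart.

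The series as a whole asked how expression differs between the sexes, in whole flies, in dissected gonads and carcasses, and in flies without a germline. Testes, ovaries and both carcasses came from adult y[1]w[67c] flies aged 3 to 5 days and kept at 25 C. The germline-less males, used here only beside the main comparison, were whole tud[1] bw[1]sp[1] flies born to mothers of that genotype, of the same age and temperature. They were set against whole y[1]w[67c] males on 2 arrays, of which the source name of array 23 reads y[1]w[1], and against y[1]w[67c] testes on 2 arrays of a single dye orientation. The labels give neither the number of animals pooled nor whether accessory glands, ducts and bulb stayed with the carcass or with the testis. They do not say whether the arrays came from separate dissections, so the p-values measure the spread between arrays, which may be technical.

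A Drosophila testis holds germline stem cells at one end and, along its length, spermatogonia, spermatocytes that transcribe most of the genes needed later, meiotic cells and elongating spermatids. Spermatids fuse their mitochondria into a large derivative, build a very long axoneme, replace histones with protamine-like proteins and are finally separated from one another in individualization. Somatic hub and cyst cells support the germ cells. The carcass contributes muscle, nerve and sense organs, fat body, gut and epidermis. Whether it also held the somatic reproductive tract of the male is not given by the labels.

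Array 9 measured 13219 elements and array 10 measured 14422, against a range of 7994 to 14881 over the series. An element is a DNA probe spotted in duplicate, and the correlation between duplicate spots across elements was 0.981 on array 9 and 0.987 on array 10. The turned log2 ratios of the arrays correlated at 0.913 across the 13124 elements on both, with a median absolute difference of 0.191. These correlations are across elements, which are not independent replicates. An element was called where limma, fitted to all 46 arrays, gave a Benjamini-Hochberg adjusted p below 0.05. The number of arrays limits the precision, with a median standard error (SE) of 0.137.

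Most elements that were called had the same direction on both arrays, and calls fell about evenly on either side of 0. Of 13124 elements, 3411 were called higher in testis (26%) and 3532 were called lower (26.9%). Of the 6943 called elements, 6937 had the same sign on both arrays. A call needs a mean of both arrays well away from 0, so this count is largely set by the calling. Represented by 1 element each, 9336 genes were tested, of which 2735 were called higher (29.3%) and 2519 lower (27%). These gene shares are the background for the list counts of this comparison below. The count of called elements fell to 4418 when array 9 was left out and to 4310 when the arrays were scaled to the same spread.

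At least a 2-fold difference was found for 1222 genes higher in testis (13.1%) and 632 lower (6.77%). At a log2 ratio of at least 2 in size there were 370 genes higher and 80 lower. The extremes turned the other way, since 10 genes lay below -3 and 0 above 3. By elements, 62.2% of the 2343 differences of at least 2-fold were higher in testis, and 72.3% of the 1168 that were left after scaling. Among elements measured on all 46 arrays the balance turned, with 180 higher and 325 lower (35.6% higher). That setting requires a value on every array, also on those without testis RNA. It kept 2 of 24 accessory gland genes and 23 of 29 respiratory chain genes. How far this selection moved the balance was not tested. The 2-fold higher genes had a median of 1.83 on array 9 and 1.504 on array 10, and 1129 of them were larger on array 9.

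**Figure D1:**
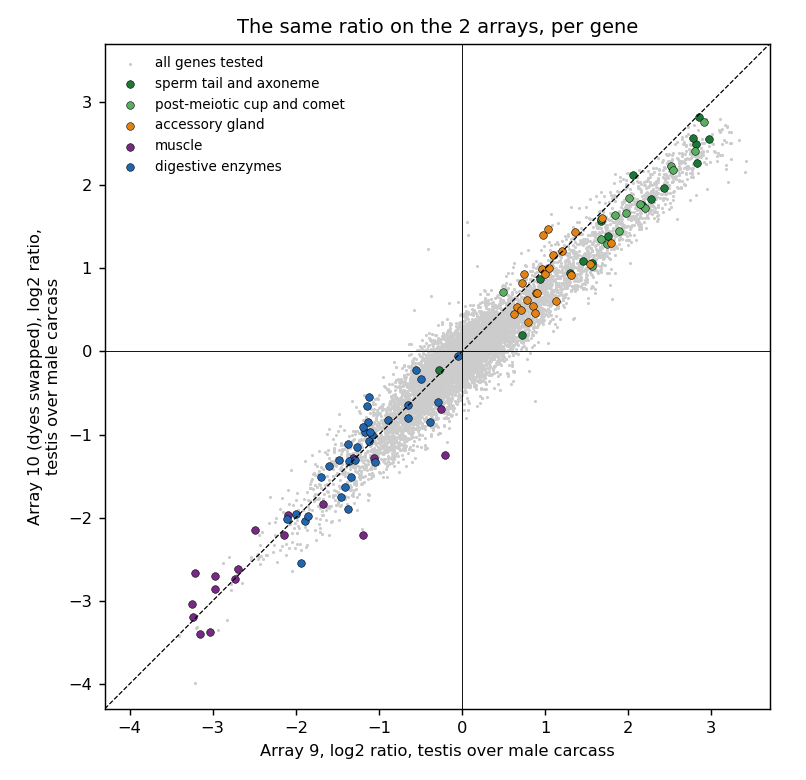
Log2 ratio of testis over male carcass per gene on array 9 (horizontal) and on array 10 with swapped dyes (vertical), with 5 gene lists coloured and the line of equal values dashed. Sperm tail and cup genes lie at the upper right, muscle genes at the lower left, and accessory gland genes between 0 and 2 on both arrays.

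The same ratio was also reached over 12 other arrays, through ovary over female carcass, ovary over testis and female carcass over male carcass. The direct ratio differed from that route for 0 of 10622 elements by limma (0%), with 254 (2.39%) at an unadjusted p below 0.05. The median absolute difference was 0.148 beside a median SE of 0.231 for the difference. Departures far larger than these went uncalled as well. Examples were dj, at 2.66 directly and 1.09 by the route, and iotaTry, at -0.99 and 0.36. The 0 calls therefore do not show agreement for single genes. The route shares both RNA groups with the direct ratio but none of its arrays.

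Genes of spermatids and sperm stood among the highest ratios. Gpdh3, a paralog of the cytosolic glycerol-3-phosphate dehydrogenase, had a log2 ratio of 3.11 on array 9 and 2.79 on array 10. Mst87F, a cysteine-rich protein of the sperm tail, had 2.85 and 2.82, and Mst98Cb, of the same family, had 2.97 and 2.56. Both arrays thus placed these transcripts about equally far above the carcass. The fitted log2 ratios were 2.95 ± 0.28 for Gpdh3, 2.84 ± 0.23 for Mst87F and 2.76 ± 0.24 for Mst98Cb (SE, 2 arrays), with limma adjusted p of 2.22e-09, 5.75e-11 and 5.44e-11.

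The other symbols among the 12 highest were Vtld (2.87), ssp5 (2.87), exu (2.85), Rcd7 (2.85), w-cup (2.84), tHMG2 (2.75), Mst33A (2.75), S-Lap8 (2.75) and hmw (2.74). The gene exu encodes an RNA-binding protein best known for localizing bicoid mRNA in the oocyte and is also needed in spermatogenesis. Its log2 ratio was 3.42 on array 9 and 2.29 on array 10, the widest gap among the 12, and 3.04 by the route through the other arrays. Counting genes known only by CG numbers, CG12861 (2.95) and CG5790 (2.95) stood beside Gpdh3 at the top. CG numbers made up 61.1% of the 1222 genes at least 2-fold higher, 35.3% of the 632 at least 2-fold lower and 42.9% of all 9336 tested.

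At the low end stood genes of muscle, epidermis and eye. Cyp4g1, a cytochrome P450 of the oenocytes that completes cuticular hydrocarbon synthesis, had a log2 ratio of -3.22 on array 9 and -3.99 on array 10. The fitted value was -3.60 ± 0.23 (SE, 2 arrays; limma adjusted p = 1.34e-13), the lowest of any gene. Next came CG7214 (-3.41), the myosin light chain gene Mlc1 (-3.27), Vajk3 (-3.26), the arrestin gene Arr2 (-3.25), Mlc2 (-3.22), the troponin C gene TpnC4 (-3.20) and flightin, fln (-3.15). The list closed with Vajk2 (-3.14), Cyp313a1 (-3.03), paramyosin, Prm (-2.94), TpnC41C (-2.92) and Strn-Mlck (-2.84).

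Among genes of the early germline, 4 of 14 tested were called higher and 1 lower, against 29.3% and 27% of all genes, with a list median of 0.19 beside 0.01 for all genes. The translational regulator bgcn, which acts with bam to end spermatogonial divisions, had a log2 ratio of 1.48 on array 9 and 1.19 on array 10. The RNA helicase gene vas had 1.22 and 0.92, and krimp, of the piRNA pathway, had 1.26 and 1.27. Each of these 3 was clearly above 0 on both arrays, though vas lost its call without array 9. Unlike bgcn, bam at -0.08 ± 0.17, zpg at 0.18 ± 0.28 and mei-P26 at 0.13 ± 0.15 (SE, 2 arrays) had small values and were not called. The germ plasm gene tud was lower in testis at -0.67, a call lost without array 9. piwi stood at 0.55, with a call lost without either array.

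Genes of the meiotic programme were higher, by less than the late genes. The testis meiotic arrest complex switches on spermatocyte transcription, and its genes wuc (0.95), mip40 (0.88) and topi (0.62, lost without array 9) were called higher while comr, at 0.13, was not. In the meiotic division list, 11 of 11 tested genes were called higher, with a median of 0.80. The count was 6 without array 9 and 7 with scaled arrays. fest, a regulator of cyclin B translation, had 2.14 on array 9 and 1.68 on array 10. The meiotic Cdc25 phosphatase gene twe had 1.99 and 1.51, and its translational activator bol had 1.68 and 1.27. These 3 kept their calls in all 8 alternative settings that measured them. The weakest was fws, a Golgi tethering gene needed for spermatocyte cytokinesis, at 0.32, which lost its call in 5 of 8.

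The sperm tail and axoneme list had 16 of 17 tested genes called higher and 1 called lower, with a median of 1.97. The spermatocyte and spermatid beta-tubulin betaTub85D had a log2 ratio of 2.83 on array 9 and 2.27 on array 10. djl had 2.78 and 2.57, and its neighbour dj, a sperm tail and mitochondrial protein, had 2.81 and 2.497. All 3 lay more than 2 log2 units above the carcass on each array. The filament genes Tektin-A and Tektin-C followed at 2.20 and 2.05, and the sperm dynein intermediate chain Sdic1 at 1.62. The axonemal dynein heavy chains spread widely, from 1.57 for Dhc98D, 1.27 for Dnah3, 1.12 for Dhc36C and 0.91 for Dhc16F to 0.46 for Dhc62B. Dhc93AB was the only one called lower, at -0.25 ± 0.10 (SE, 2 arrays; limma adjusted p = 0.0311), and lost its call in 5 of 8 alternative settings.

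Sperm chromatin genes were higher in 5 of 5 tested, with a median of 2.13. The HMG-box gene tHMG2 had 3.01 on array 9 and 2.49 on array 10, and Mst77F, a linker-histone-like protein of the sperm nucleus, had 2.81 and 1.88. The protamine gene ProtB had 2.26 and 2.01. The sperm leucyl aminopeptidases, abundant metalloproteases of mature sperm, were higher in 4 of 4 tested, from S-Lap2 at 2.00 to S-Lap8 at 2.75. Members of this family resemble one another in sequence, so cross-hybridisation between them cannot be separated from their own signal.

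The cup and comet genes are transcribed after meiosis, and their mRNAs lie at the distal ends of elongating spermatids. All 15 tested were called higher, with a median of 1.82. w-cup led at 2.91 on array 9 and 2.76 on array 10, followed by spaw at 2.81 and 2.42 and soti at 2.52 and 2.23. The lowest, f-cup, still had 0.49 and 0.72. In the list of spermatid mitochondria and individualization, 14 of 16 tested were higher and 1 lower, with a median of 1.65. Importin alpha, Pen, had a ratio of 2.71, bb8 of 2.60, the F-box gene ntc of 2.46, tomboy40, a mitochondrial import paralog, of 2.33, and the mitofusin fzo of 1.23. knon (0.28) was not called, and heph (-0.33), an RNA-binding protein that many tissues make, was called lower, while a second heph element was called higher at 0.91.

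**Figure D2:**
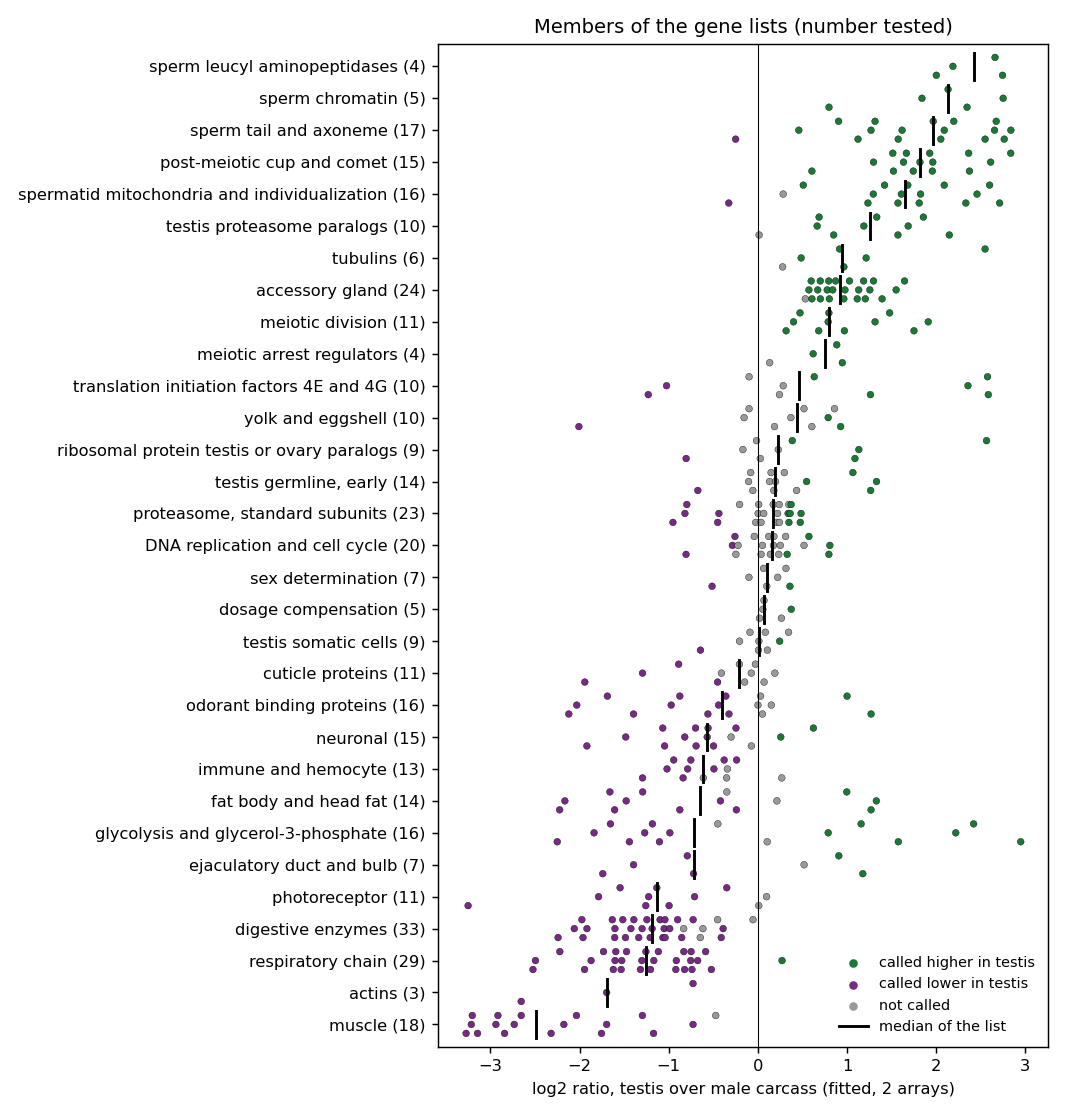
Fitted log2 ratio of testis over male carcass for each tested member of the 31 lists with a tested gene, ordered by list median (black bar), with colour giving the call. Medians run from 2.42 for the sperm leucyl aminopeptidases down to -2.49 for muscle.

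In energy metabolism many genes and their paralogs had ratios of opposite sign. Of 51 tested subunits of the respiratory complexes and ATP synthase whose symbol carries no added L, 44 were called lower in testis and 1 higher. Their median was -0.91. Of 18 with an added L, in some cases before a number, the mark of a paralog, 16 were called higher and 1 lower. The median of these 18 was 0.91. ND-MNLL (-1.19), called lower, was counted among the 51. This grouping by symbol was chosen after the values were seen, so its counts only describe. The sole gene of the 18 called lower was UQCR-14L (-0.93), and ATPsynepsilonL (0.11) was not called.

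Among cytochrome oxidase genes, COX4L had a log2 ratio of 2.20 on array 9 and 2.00 on array 10, while COX4 had -1.82 and -1.64. COX7AL had 1.98 and 2.06, while COX7A had -0.70 and -0.47. The paralogs thus lay above 0 and the standard subunits below 0 on both arrays, although COX7A lost its call without either array. In succinate dehydrogenase the fitted ratios were 2.21 for SdhCL and -1.47 for SdhC. In ATP synthase, ATPsynbetaL stood at 0.38 and ATPsynbeta at -2.52. Of the 13 such pairs with both genes tested, 13 paralogs were called higher and 12 also had their standard partner called lower, the exception being ND-B14.5A at -0.40. In the list of standard respiratory chain genes, 28 of 29 were called lower. The count was 18 with scaled arrays. SdhD alone was called higher, at 0.27, and lost that call in 4 of 9 alternative settings.

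In the citrate cycle, the aconitases mAcon2 and mAcon1 had fitted ratios of 1.80 and -2.22, and the succinyl-CoA ligase subunits Scsalpha2 and Scsalpha1 had 1.81 and -1.15. The fumarases Fum3 (1.55) and Fum2 (0.90) were called higher. In the list of glycolysis and the glycerol-3-phosphate shuttle, 6 of 16 were higher and 8 lower. Those higher were Gpdh3 (2.95), Pglym87, a phosphoglycerate mutase (2.42), Gpo3 (2.22), Gpo2 (1.58), Gpdh2 (1.16) and Ald2 (0.79). Those lower were led by the aldolase Ald1 (-2.25), phosphofructokinase, Pfk (-1.84), Gpdh1 (-1.65) and Pgk (-1.44). A second Pfk element was called higher, at 2.09, so the direction of Pfk depends on the element. Gpdh1 itself had -1.46 on array 9 and -1.85 on array 10, against 3.11 and 2.79 for Gpdh3.

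The proteasome degrades ubiquitinated proteins. Of 10 testis paralogs tested, 9 were called higher, with a median of 1.26. Prosbeta4R2 had 2.45 on array 9 and 1.85 on array 10, and Prosbeta4 had -0.40 and -0.48. Rpn12R had 1.70 and 1.68, and Rpn12 had -0.89 and -1.02. Neither array placed a paralog at or below its standard partner in these pairs, although Prosbeta4 lost its call without either array. Of the 8 pairs with both genes tested, 8 paralogs were higher, and 6 of them had a standard partner called lower. Over 23 standard subunits, however, 6 were called higher and 5 lower, against 29.3% and 27% of all genes, with a median of 0.17. With scaled arrays the counts were 0 and 1. Prosbeta2R2 (0.01) was the paralog without a call.

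The initiation factor eIF4G2, needed for male meiosis, had a log2 ratio of 2.75 on array 9 and 2.42 on array 10, and eIF4G1 had -0.68 and -1.37. Among the cap-binding proteins, eIF4E5 (2.58), eIF4E4 (2.36), eIF4E3 (1.26) and eIF4E7 (0.63) were called higher. The general form eIF4E1 (0.24) and eIF4E6 (0.28) were not, and eIF4EHP (-1.23), a repressor that binds the cap, was lower. Of 9 ribosomal protein paralogs tested, 4 were higher, with RpL10Aa at 2.57 far above RpS19b (1.13), RpL22-like (1.09) and RpL37-2 (0.39). RpS15Ab (-0.80) was called lower, a call lost without either array, and the other 4 were not called. Of 26 other ribosomal protein genes tested, 10 were called lower, against 27% of all genes, and the rest were not called. Values ran from -1.07 to -0.25. RpL3 (-0.73), called lower, has another element called higher at 0.57 and others not called at -0.12 and -0.01. The tubulins were called higher in 5 of 6 and the actins Act88F (-2.66), Act79B (-1.70) and Act87E (-0.73) lower in 3 of 3.

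**Figure D3:**
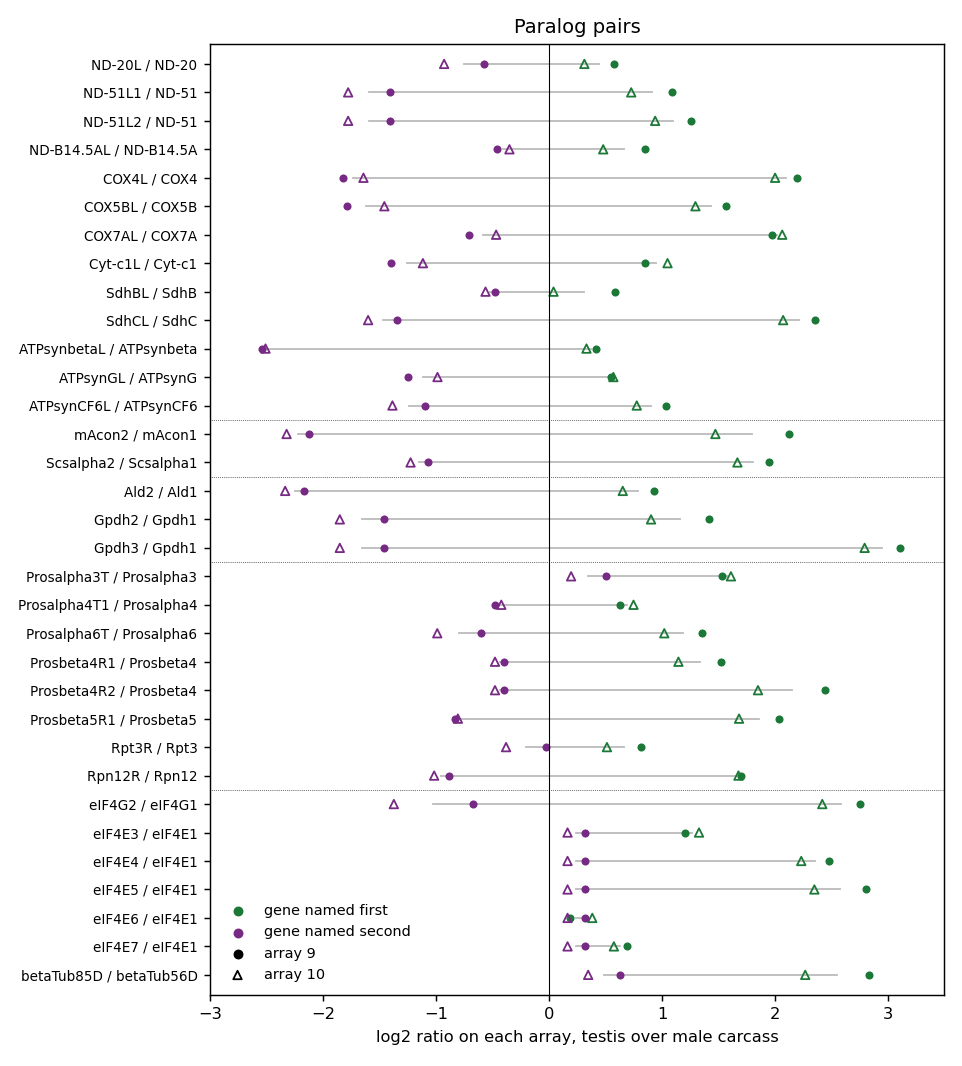
Log2 ratio of testis over male carcass on array 9 (filled circles) and array 10 (open triangles) for 33 paralog pairs, the gene named first in green and its partner in purple, with dotted lines between oxidative phosphorylation, citrate cycle, glycolysis, proteasome, and translation and cytoskeleton. In 32 pairs both values of the first gene lie above both values of the second, the exception being eIF4E6 and eIF4E1.

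All 33 pairs were spotted as separate probes, and signal shared between near-identical members cannot be told apart from their own. The pairs were assembled with the values known, so the 24 pairs in which the first gene was called higher and the second lower give no independent support.

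The markers of the carcass were lower in testis. Of 18 muscle genes tested, 17 were called lower, with a median of -2.49, and sls (-0.47) was not called. The photoreceptor list had 9 of 11 lower, from Arr2 at -3.19 on array 9 and -3.31 on array 10 to rdgA at -0.35. Digestive enzymes were lower in 28 of 33, with a median of -1.19, led by the maltase Mal-A1 (-2.24), Mal-A6 (-2.06) and the trypsin deltaTry (-1.97). The digestive count was 18 without array 9. Closely related Jonah proteases and trypsins may share signal. Immune and hemocyte genes were lower in 9 of 13, led by drosomycin, Drs, at -1.29, but the count was 1 without array 9, 2 without array 10 and 0 with scaled arrays.

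Neuronal genes were lower in 11 of 15 and higher in 2. The synaptic vesicle gene Syn had -1.71 on array 9 and -2.13 on array 10, and elav, an RNA-binding protein of neurons, had -1.19 and -0.95. The active zone gene brp went the other way, with 0.81 and 0.44, and lost its call without array 9 or with scaled arrays. nAChRalpha1 was higher by 0.26, a call lost in the same settings. In the list of fat body genes, 9 of 14 were lower, among them the lipoprotein gene apolpp (-2.22) and the fatty acid synthase FASN1 (-2.17).

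A pair of yolk protein genes and an odorant binding protein were the fat body exceptions. Yp2 had a log2 ratio of 1.56 on array 9 and 1.10 on array 10, and Yp1 had 1.09 and 0.90. The fitted values were 1.33 ± 0.43 for Yp2 and 1.00 ± 0.40 for Yp1 (SE, 2 arrays), with limma adjusted p of 0.00984 and 0.0369. Both lost their calls without either array and with scaled arrays. By the route through the other arrays the ratios were 0.53 for Yp2 and -0.11 for Yp1, and Yp3 stood at 0.21 without a call. Obp99a, which also heads the odorant binding list together with Obp44a, had 1.44 and 1.10 and kept its call in all 9 alternative settings. Obp44a had 1.24 and 0.76. In that list 10 of 16 were lower, with Obp57c (-2.12) and Obp56d (-2.03) the lowest.

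Of 9 cyst, hub and stem cell niche genes tested, hh, a hub signal (0.24), was called higher and Egfr (-0.64) lower. The call for hh was lost without either array. tj (0.34), eya (0.08), so (0.11) and esg (0.01) were not called. zfh1 had 0.21 on array 9 and -0.62 on array 10, values on either side of 0.

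Accessory gland genes were higher in the testis sample than in the male carcass. Accessory glands make most seminal fluid proteins, and are separate organs from the testis. Of 24 tested genes, 23 were called higher and 0 lower, with a median of 0.92, against 29.3% higher among all genes. The protease inhibitor Acp62F had a log2 ratio of 1.68 on array 9 and 1.61 on array 10. The sex peptide gene SP had 0.98 and 1.40, and Mst57Dc had 1.35 and 1.43. Every one of the 24 genes was above 0 on both arrays, from CG17575, not called at 0.53, up to Acp62F at 1.65. The count was 11 without array 9 and 12 with scaled arrays. For prd, a transcription factor that the glands require, the ratio was 0.80.

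In whole males over germline-less males 3 of 25 accessory gland genes were called lower (1.4% of all genes) and the rest were not called. In testis over germline-less male, which shares the testis RNA group, 4 of 25 were called higher (19% of all genes), with a median of 0.31. In female carcass over male carcass 21 of 23 were lower (9.15% of all genes). Against ovary, the other gonad, Acp62F had a log2 ratio of -3.72 in ovary over testis. Genes of the ejaculatory duct and bulb were mixed. Spn77Bb (1.18) and Spn77Bc (0.91) were called higher, while EbpIII (-1.74), Obp56g (-1.40), Ebp (-0.79) and EbpII (-0.72) were lower. With scaled arrays the counts were 0 higher and 2 lower, and without array 9 they were 0 and 3. The part of accessory gland tissue in the testis sample was not tested.

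Of 10 yolk and eggshell genes, yl, the yolk receptor, at 0.93 and Femcoat at 0.79 were called higher and Pxd, a peroxidase, at -2.01 lower. The list median was 0.44. Calls for both higher genes were lost without array 9, while 6 of the 10 were higher when only the 2 arrays of this comparison were fitted. In the list of DNA synthesis and division genes 4 of 20 had a call above 0 and 3 one below, against 29.3% and 27% of all genes. Its median was 0.16, and with scaled arrays the counts were 1 and 1. Mcm2, a subunit of the replicative helicase, had 0.06 on array 9 and 1.56 on array 10, and was 1 of 8 called genes whose arrays differed by over 1 log2 unit. E2f2 (0.57) kept its call in all 9 alternative settings. Of the dosage compensation genes mle (0.37) was called in 1 of 5 tested, a call lost in 6 of 8 settings, and among 7 sex determination genes tra2 (0.36) was higher and fl(2)d (-0.51) lower, both lost without either array. In the cuticle list 4 of 11 were lower, against 27% of all genes, led by Vajk1 (-1.94).

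Whole males over germline-less males used neither dissected testis nor carcass. Of the 1222 genes at least 2-fold higher in testis, 989 were also tested in whole males over germline-less males, and 580 of them (58.6%) were called higher there. Of all genes tested in both, 7.53% were, and of all genes in that comparison 7.03%. Read the other way, 86.7% of the genes higher in whole males belonged to the testis set. Mst87F had a log2 ratio of 2.33 and dj of 2.31 in that comparison, beside 2.84 and 2.66 in testis over male carcass. Among the lists, 9 of 13 sperm tail genes, 7 of 10 cup and comet genes and 4 of 4 sperm leucyl aminopeptidases were higher. No call was made for the 12 early germline genes measured there.

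**Figure D4:**
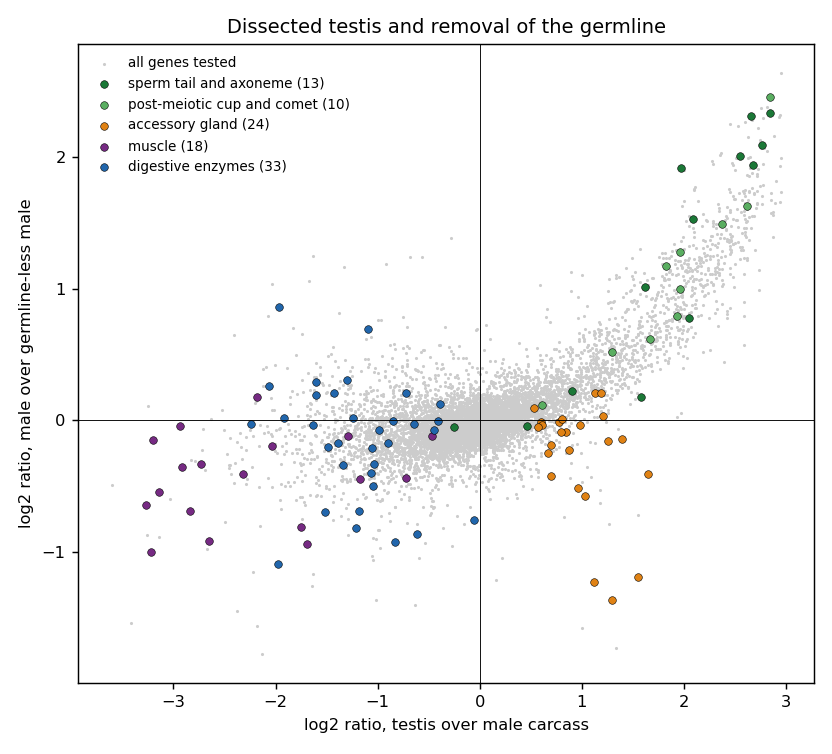
Log2 ratio per gene of testis over male carcass (horizontal) and of whole male over germline-less male (vertical), with 5 gene lists coloured and the number of genes with both values in brackets. Sperm tail and cup genes rise along both axes, while accessory gland genes lie to the right of 0 and mostly at or below 0 on the vertical axis.

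Testis was also hybridised against germline-less males, with the testis RNA group shared between the comparisons. Replacing the carcass by the germline-less male gave few differences in the test of the difference itself, with 64 of 9020 genes higher (0.71%) and 139 lower (1.54%). Yp1 (2.16), Acp76A (1.63), EbpII (1.54), BOD1 (1.29), Spn38F (1.19) and Jhbp5 (1.11) had the highest differences. Vajk3 (-2.37), Vajk2 (-2.35), Pxd (-1.98), Vajk4 (-1.90), the chitinase Cht5 (-1.79) and Prm (-1.74) had the lowest. By elements the calls were 83 higher (0.663%) and 191 lower (1.53%). These 274 calls became 0 when only the arrays involved were fitted and 1 with scaled arrays, so the genes named are those of 1 setting. Genotype, dissection and dye orientation differ together here and cannot be told apart.

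The male and female gonads, each against its own carcass, differed for 1846 of 8542 genes in favour of the testis (21.6%) and for 1346 in favour of the ovary (15.8%). The largest differences toward testis were w-cup (4.33), dj (4.10), nis (3.82), Mst98Cb (3.79), Yp2 (3.65) and S-Lap7 (3.59). For dj the ratio was 2.66 in testis over male carcass and -1.45 in ovary over female carcass. For Yp2 the ratio was 1.33 in testis over male carcass and -2.32 in ovary over female carcass. The largest differences toward ovary were Gabat (-2.16), the eggshell gene Cp38 (-2.12), Cyp313a1 (-2.11), Cyp1 (-2.05), the lipid droplet gene Jabba (-2.004) and Fur2 (-1.96). By elements 2270 were higher (18.7%) and 1927 lower (15.9%), and this total of 4197 was 2594 without array 9. The excess toward testis turned when both duplicate spots were required, with 1022 higher and 1409 lower, and among elements measured on all 46 arrays, with 713 higher and 807 lower.

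Several groups differed in that test, which compares gonad over carcass ratios and so takes in the carcasses too. Higher in testis over its carcass were 8 of 9 sperm tail genes, 8 of 8 cup and comet genes and 16 of 16 accessory gland genes. Higher in ovary over its carcass were 9 of 10 yolk and eggshell genes, 14 of 20 DNA replication genes and 11 of 23 standard proteasome subunits. Digestive enzymes differed in 21 of 33, being further below the carcass in ovary, with a median of -2.15 there and -1.19 in testis. The carcasses differed as well, with a median for these genes of 1.14 in female carcass over male carcass. In ovary over testis the median was -0.48. Muscle differed in 1 of 18. Of the 628 genes at least 2-fold lower in testis that were tested in both, 91.9% were also called lower in ovary over female carcass, against 29.5% of all genes tested in both and 28.1% of all in that comparison. Of the 822 at least 2-fold higher, 17.6% were higher in ovary too and 10.7% lower, against 24.2% and 29.5% of all tested in both and 24.9% higher in that comparison.

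Chromosome 4, the small dot chromosome, stood apart from the other arms. Of 51 tested genes on it, 36 were called lower in testis (70.6%) and 3 higher (5.88%), with a median of -0.66. On the other arms the share lower lay between 24.7% on the X and 29.2% on 2R. On both arrays 44 of the 51 genes were below 0, with medians of -0.68 on array 9 and -0.78 on array 10. The lowest, chosen for their values, were CG33521 (-2.82), ATPsynbeta (-2.52), CG1674 (-2.38), NfI (-2.23) and apolpp (-2.22). ci, a transcription factor of Hedgehog signalling, had -0.90, and the genes called higher were dati (0.46), 4E-T (0.39) and CG11076 (0.30). In ovary over female carcass 28 of 50 genes on this chromosome were lower (56%), and in whole males over germline-less males 1 of 49 was.

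The X carried a lower share of genes higher in testis, 25.1% of 1467, than any major autosomal arm, where 2L had the highest at 34.2% of 1666. The share lower on the X was 24.7%. In ovary over female carcass 29.5% of X genes were higher and 23.7% to 25.4% on the major autosomal arms. In whole males over germline-less males 3.6% of X genes were higher and 7.13% to 9.59% elsewhere on the major arms. These shares describe the arms and were not tested.

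**Figure D5:**
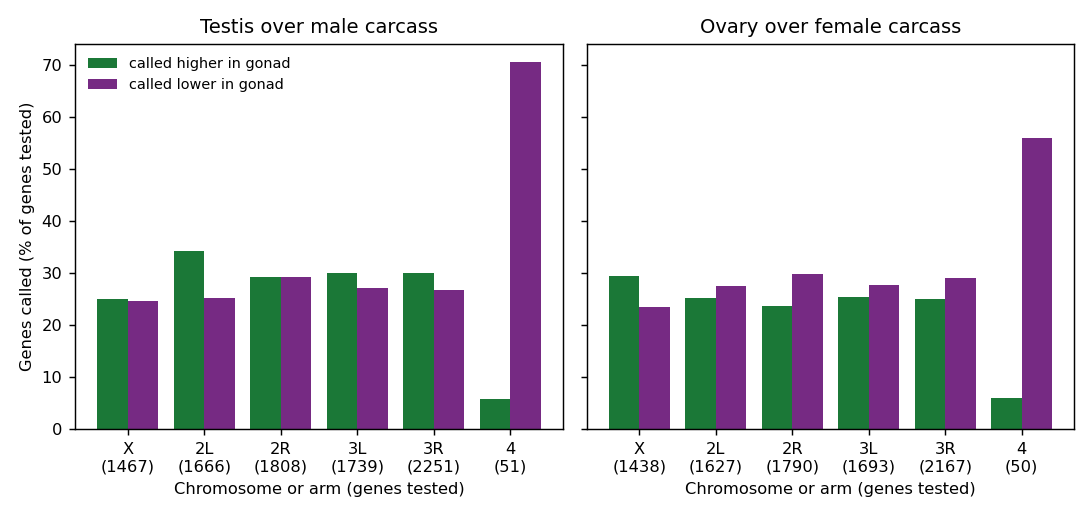
Share of tested genes called higher (green) and lower (purple) in gonad than in carcass, by chromosome arm, for testis (left) and ovary (right), with the number of genes tested in brackets. Chromosome 4 has 70.6% lower in testis and 56% lower in ovary, beside shares below 30% for lower genes on the other arms.

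Genes at least 2-fold higher in testis lay next to one another along the chromosomes more often than their overall share. The next tested gene was also a member for 22.4% of them, where members make up 13.4% of the genes placed. For genes at least 2-fold lower the figures were 14.4% and 6.83%. The longest run held 8 neighbouring tested genes on 3R, Pif2, CG1137, CG2336, CG1138, glob2, sowi, CG15177 and sunz, in which sowi and sunz belong to the cup and comet list. Another run of 4 on 3R held CG1979, dj, djl and Mst84B. Among lower genes the longest was 5, the maltase cluster of Mal-A1, Mal-A2, Mal-A3, Mal-A4 and Mal-A6 on 2R. Neighbouring duplicates can share signal on probes of this kind.

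Different probes for a gene mostly gave like values. Of 1074 genes with several tested elements, the median range between them was 0.26, and 45 had elements called in opposite directions. Pfk, heph, Vha44 and RpL3 were such genes, as was CycE, with one element at -0.26 and another at 0.65. The values in the lists above are those of the element measured on most arrays.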

How the data were processed

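The submitters deposited 1 log ratio per spot for 31464 spots on each of 46 arrays. No base is stated for them, and log2 was assumed for the authors' values, so folds depend on that choice. How background, normalization and missing spots were handled is not given in the sources used here. Per the labels, 200 ng of poly(A) mRNA were made into each Cy3 or Cy5 probe. The ratio was read as channel 1 over channel 2. This direction is likely, since yolk protein genes on 4 female and male arrays and betaTub85D, Mst87F and dj on 4 ovary and testis arrays gave 12 of 12 values each in that sense.

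Duplicate spots were averaged into 15732 elements and arrays centred on their median. limma 3.58.1 (R 4.3.3, statmod 1.5.0) fitted 1 coefficient per RNA pair, signed by orientation, and a dye coefficient per element, with hybridisation number as a random block (correlation -0.087). An element was tested where both arrays measured it. Of the arrays used beside it, 9626 first-subarray values of 7b and 8b were left out, because there 7b correlated at -0.876 with 7a while the other subarray gave 0.922. Self-tests ran on simulated data. The residual variance was pooled over all arrays, so an SE does not rest on arrays 9 and 10 alone.

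The platform annotation named 12587 elements with 1 gene, 73 with several, left unnamed, and 3072 with none. Each gene took its most widely measured element. RefSeq gave chromosome arms and gene order. Of the lists' members, those the annotation does not name, the Y-linked list among them, were not analysed here. Text names the 12 highest and lowest called genes without a CG number, the 3 of any symbol, 6 and 6 for each contrast, and list members that show a range. The comparison, lists and rules were chosen with earlier results of these data known, and families by symbol, paralog pairs and chromosome 4 genes after their values were seen.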

Additional observations from a re-analysis of the deposited data

Results flagged for a closer look

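The difference between the gonads, each over its own carcass, passed the test for 2270 elements higher in the male and 1927 lower, which brought these results here. The named genes with the largest differences toward testis were w-cup (4.327), dj (4.1), nis (3.819), Mst98Cb (3.79), Yp2 (3.649) and S-Lap7 (3.59), all as log2 differences of ratios. Toward ovary they were Gabat (-2.155), Cp38 (-2.12), Cyp313a1 (-2.107), Cyp1 (-2.049), Jabba (-2.004) and Fur2 (-1.956). Of these, Cyp313a1 was below 0 in both gonads, at -3.03 in testis over male carcass and -0.93 in ovary over female carcass. Gabat was above 0 in ovary (0.48) and below 0 in testis (-1.68).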

How the results depend on the processing

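With the same element kept, no called gene that was recomputed changed sign under an alternative, while uncalled genes near 0 did. Between elements of a gene the sign could differ, as for the 45 genes with elements called in opposite directions, Pfk among them. The balance of higher and lower calls turned under some alternatives. Among elements measured on all 46 arrays, so also on arrays without testis RNA, calls of at least 2-fold were 180 higher and 325 lower. In the ovary contrast 713 were higher and 807 lower there, and 1022 and 1409 with both duplicate spots. With arrays scaled to the same median absolute deviation, 4310 elements were called and 1168 at least 2-fold, 2151 in the contrast with ovary and 1 in that with germline-less males. Among elements measured on all 46 arrays, which leaves fewer to test, these counts were 2034, 505, 1520 and 88. Requiring both duplicate spots left 2431 in the ovary contrast. In the germline-less contrast the 274 calls became 21 with no dye coefficient, 168 with independent arrays and 0 on its own arrays. Leaving out 1 array gave 4418 to 5246 called elements, 2594 to 2910 in the ovary contrast and 2 to 35 in the germline-less contrast. Scaling apart, the cause of these shifts was not tested. With the mean over all elements of a gene, list medians became -0.17 for glycolysis and glycerol-3-phosphate, -1.21 for the respiratory chain, 0.76 for initiation factors 4E and 4G, 0.97 for accessory gland, -2.10 for muscle, 0.18 for DNA replication and cell cycle, and 0.0051 for sex determination. Single genes were compared between settings for only a part of the genes tested. Of these, 88 lost their call with scaling and 322 kept their outcome. Without array 9, 94 lost their call, 315 kept their outcome and 1 moved the other way. No paired analysis was possible because each array carries both RNAs and replicate numbers follow accession order. With 2 arrays and no measure of signal over background in the files, small ratios are the least certain.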

Other observations

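Families described here were picked by symbol after their values were seen. Tubulin tyrosine ligase-like genes, whose enzymes add amino acids to tubulin, were called higher in testis in 8 of 9 tested, from TTLL1A (1.601) to TTLL3B (2.55), and TTLL15 (-0.08) was not called. TTLL4B had a log2 ratio of 2.78 on array 9 and 2.26 on array 10. The chaperonin paralogs Hsp60B (2.72), Hsp60D (2.49) and Hsp60C (1.86) were called higher, while the general form Hsp60A (0.17) was not. Among kinesins, Klp59C (2.63), Klp59D (2.30), Klp67A (1.59) and Klp10A (1.40) were higher, and Klp68D (-0.36) and Klp31E (-0.35) lower.

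Of 29 genes of the vacuolar proton pump tested, 18 were lower in testis, down to -1.17 for VhaAC45, and 6 higher, with Vha36-2 at 2.16, VhaM9.7-d at 1.41, Vha68-3 at 1.35 and Vha14-2 at 1.17. Of the 6, Vha44 (0.36) has other elements called lower at -1.06 and -0.99. Numbered variants fell on either side, with Vha100-4 (-1.04), Vha100-5 (-0.91) and Vha16-2 (-0.57) called lower and Vha36-3 (-0.13) not called. Vha36-1 (-0.72) and Vha14-1 (-0.85) were also lower. Of 14 mitochondrial import genes, 12 were higher, with tomboy40 at 2.33 and Tom70 at 2.14. Cytochrome P450 genes were lower in 40 of 64 and higher in 6, with Cyp312a1 at 0.91 the highest.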
